A study of Mus musculus with 11 samples.

Results

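The replication-dependent histone genes are the members of the Hist1, Hist2, Hist3 and Hist4 clusters, which encode the linker histone H1 and the core histones H2A, H2B, H3 and H4. Members were taken by name and not by value, as every protein-coding gene whose GRCm38 symbol begins with Hist1h, Hist2h, Hist3h or Hist4h. Of 67 annotated genes that fit this rule, 59 were found among the 38561 genes of the count files, namely 6 H1, 18 H2A, 15 H2B, 7 H3 and 13 H4 genes. The other 8, 5 H3 and 3 H2B genes, had no matching identifier and were not analysed here. The group was proposed because earlier results of these data showed lower histone counts in some mutants, so its counts of changed genes and its medians are given as descriptions.

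Replication-dependent histone genes supply the histones that package newly made DNA, and their mRNAs accumulate in S phase. They are the protein-coding mRNAs of animals that normally end without a poly(A) tail. Their 3′ end is instead a short stem-loop bound by the stem-loop binding protein SLBP, and the pre-mRNA is cut with the help of the U7 snRNP, of which LSM10 and LSM11 are subunits, and of FLASH (Casp8ap2), while NPAT drives transcription of the clusters. Replication-independent variants such as H3.3 and H2A.Z are made from polyadenylated mRNAs through the cell cycle.

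RNA was sequenced from freshly dissected facial processes of E10.5 mouse embryos, comprising the mandibular and maxillary branchial arches and the nasal processes, to ask how the secreted ligand WNT9b and the WNT potentiator RSPO2 act together. The 11 libraries carry 4 labels: 2 wild type (wt), 3 Rspo2 mutant (Rspo2KO), 3 Wnt9b mutant (Wnt9bKO) and 3 mutant for both genes (DKO). All came from a mixed strain background at the same age and from total RNA. The mutations are germline, so every cell of the explant carries them, and the labels and sequencing methods do not say how many embryos went into a library or whether each came from an embryo of its own, so p-values measure the spread between these libraries.

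Total counts lay between 11136166 and 18017344 per library. Levels are given as CPM, the usual scaling of counts by library size, with total counts adjusted by TMM factors. The targeted gene *Rspo2* was at 14.8 and 16.0 CPM in the wt libraries, and Rspo2KO libraries lay lower, from 4.73 to 6.58 CPM. The library labelled Wnt9bKO 2 (2.86 CPM, against 18.1 and 22.8 CPM in the other two) and the library labelled DKO 3 (15.5 CPM, against 3.67 and 4.17 CPM) went against their *Rspo2* label. For *Wnt9b*, both wt libraries (10.8 and 13.4 CPM) lay below every Wnt9bKO and DKO library (16.2 to 23.3 CPM), so its gene-level counts did not check those labels. Markers of facial mesenchyme (12 genes, 656 to 1185 CPM summed) and of facial epithelium (8 genes, 223 to 267 CPM summed) were present in all 11 libraries.

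Of the 59 members, 47 lie on chromosome 13, 9 on chromosome 3, 2 on chromosome 11 and 1 on chromosome 6. The Hist1 members form a pair of blocks, 20 genes at chr13:21715763-22043676 and 27 genes at chr13:23531050-23934851, while the Hist2 members lie at chr3:96219865-96269141 (all GRCm38). A 16-base stem-loop was found in the annotated transcript of 40 members, starting 21 to 58 bases after the stop codon (median 31.5). The other 19 have annotated transcripts in which no such element was found. The stem separates the H4 genes from the rest, and 1 member is shown for each of the 6 forms found, with the stem in capitals and the loop in lower case:
Hist1h4h (chr13:23531458-23531473, plus strand): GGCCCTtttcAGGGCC
Hist2h4 (chr3:96262939-96262954, minus strand): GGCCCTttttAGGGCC
Hist1h4j (chr13:21735437-21735452, plus strand): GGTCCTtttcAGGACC
Hist1h1c (chr13:23739512-23739527, plus strand): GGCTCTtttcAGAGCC
Hist1h2bb (chr13:23747203-23747218, plus strand): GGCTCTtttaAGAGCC
Hist2h2ac (chr3:96220418-96220433, minus strand): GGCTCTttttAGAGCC
The form of Hist1h4h was shared by 7 members and that of Hist1h4j by 2, all of them H4 genes. The form of Hist1h1c was shared by 23 members and that of Hist1h2bb by 5, with no H4 gene among them.

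Promoter motifs also differed in frequency between histone types. The window of 250 bases before to 50 bases after the annotated start (RefSeq, GRCm38.p6) was searched on both strands for the CCAAT box (spelled as its name), for a TATA box spelled TATAAA and for the octamer ATTTGCAT. CCAAT was found in all 42 H1, H2A, H2B and H3 members with a promoter entry and in 3 of 12 H4 members, against 37.4% of all 32851 promoters. TATAAA was found in 32 of 54 members (13.6% of all promoters). The octamer was found in 7 of 17 H2A and 5 of 13 H2B members and in no H1, H3 or H4 member (1.74% of all promoters), and these matches are letters in a window and not sites of a factor. The last 150 bases before the start are shown for the most highly counted H2B gene, which held all 3 motifs, and for an H4 gene that held none, with the motifs in capitals:
Hist1h2bb (chr13:23746584-23746733, plus strand): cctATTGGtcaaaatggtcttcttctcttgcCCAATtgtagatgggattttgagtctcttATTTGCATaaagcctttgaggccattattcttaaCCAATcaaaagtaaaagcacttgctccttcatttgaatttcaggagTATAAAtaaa
Hist1h4h (chr13:23530894-23531043, plus strand): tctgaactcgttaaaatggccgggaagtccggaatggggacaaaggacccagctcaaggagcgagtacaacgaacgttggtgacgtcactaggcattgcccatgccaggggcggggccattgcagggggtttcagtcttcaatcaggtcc

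Histone cluster mRNAs made up 1.90% and 2.01% of all counts in wt and 1.47% to 1.83% in Rspo2KO, but 0.881% to 1.01% in Wnt9bKO and 0.953% to 1.16% in DKO. The summed level was 18832 and 20334 CPM in wt, and 14554, 19381 and 18001 CPM in Rspo2KO 1, 2 and 3. It was 8036, 10145 and 9674 CPM in Wnt9bKO and 9095, 11435 and 12409 CPM in DKO. The libraries thus fell into a pair of ranges that did not overlap, wt with Rspo2KO above and Wnt9bKO with DKO below. Mean levels relative to wt were 0.884 for Rspo2KO, 0.474 for Wnt9bKO and 0.561 for DKO. In bulk RNA, fewer cells that express a gene and less RNA per cell cannot be told apart.

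The difference was unequal between histone types. H4 mRNAs summed to 7784 and 8139 CPM in wt, and lay at 5746 to 7615 CPM in Rspo2KO, against 2070 to 2793 CPM in Wnt9bKO and 2426 to 2940 CPM in DKO. H2B mRNAs also separated the labels, at 2371 to 3262 CPM in wt and Rspo2KO and 841 to 1841 CPM in Wnt9bKO and DKO, with the lowest value in Wnt9bKO 1. H1 mRNAs summed to 5075 and 4684 CPM in wt, above every library of the other labels. They lay at 3343 to 4401 CPM in Rspo2KO, 3162 to 3239 CPM in Wnt9bKO and 3057 to 4334 CPM in DKO. For H1 the overlap was thus between Rspo2KO and DKO and not with wt. H2A (2048 to 2968 CPM against 1288 to 2201 CPM) and H3 (1046 to 1324 CPM against 676 to 1152 CPM) overlapped, among the Wnt9bKO and DKO libraries, through DKO 3 alone. This is the DKO library whose *Rspo2* count went against its label. For H2A it lay above Rspo2KO 1 only, and for H3 above Rspo2KO 1 and wt 1 only.

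**Figure D1:**
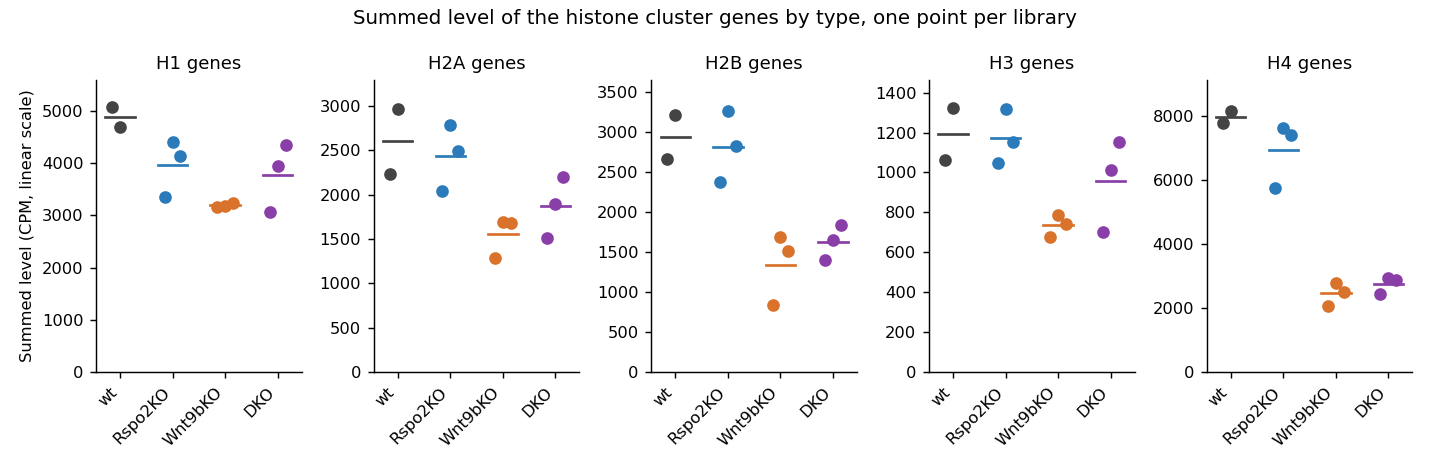
Summed level (CPM, linear axis from 0) of the histone cluster genes of each type, with 1 point per library and a bar at the mean of each label. H4 genes lie between 5746 and 8139 CPM in wt and Rspo2KO and between 2070 and 2940 CPM in Wnt9bKO and DKO. H1 genes are highest in wt and overlap between Rspo2KO and DKO.

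As a result the composition of the histone mRNA pool differed. H4 genes took 39.3% to 41.3% of histone cluster counts in the 5 wt and Rspo2KO libraries and 23.2% to 27.5% in the 6 Wnt9bKO and DKO libraries. H1 genes took 22.7% to 26.9% and 31.4% to 39.3%. The ratio of H4 to H1 counts, in which library size and scaling cancel, was 1.53 and 1.74 in wt, 1.72 to 1.79 in Rspo2KO, 0.655 to 0.877 in Wnt9bKO and 0.665 to 0.794 in DKO. Of the libraries whose *Rspo2* counts went against their labels, Wnt9bKO 2 had the highest ratio of its label (0.877) and DKO 3 the lowest (0.665), and both lay below every wt library.

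**Figure D2:**
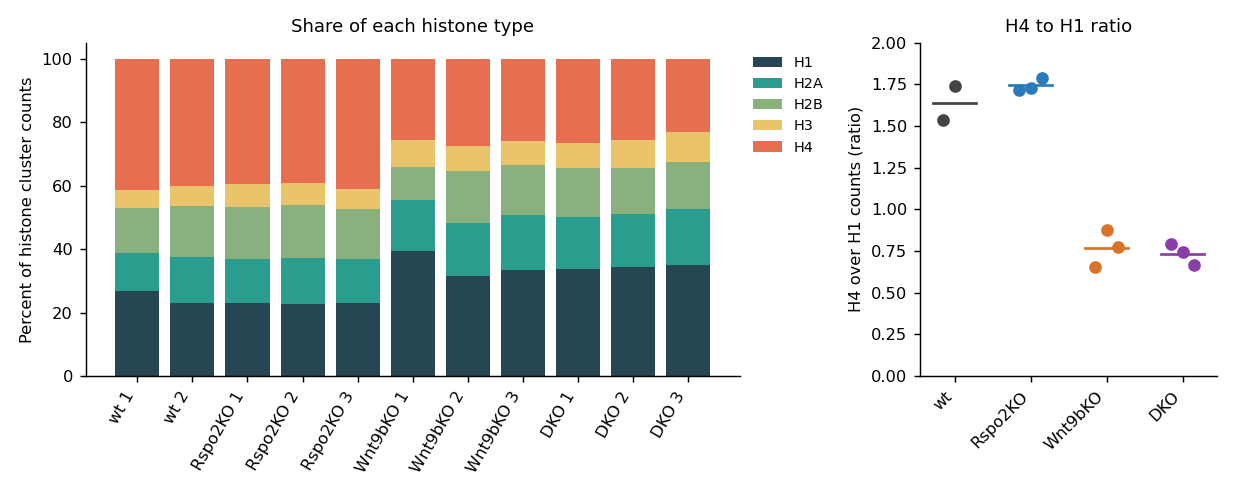
Left, the percent of histone cluster counts taken by each histone type in each library. Right, the ratio of H4 to H1 counts with 1 point per library and a bar at the mean of each label, between 1.53 and 1.79 in wt and Rspo2KO and between 0.655 and 0.877 in Wnt9bKO and DKO.

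Of the 59 members, 54 passed the filter on low counts and were tested. Hist1h2aa fell under the filter, and Hist2h2aa1, Hist2h2aa2, Hist2h3b and Hist2h3c1 had 0 counts in every library. None of the 50-base windows of these 4 genes is unique among the annotated transcripts, which include gene models that overlap each of them. The genome was not searched, so whether reads of that length can be placed in them uniquely is not known. Their 0 therefore cannot be read as absence of expression. A gene was called where the edgeR quasi-likelihood test gave an adjusted p (Benjamini-Hochberg, over all 17317 genes tested) below 0.05 and the change was more than 1.5-fold.

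In Wnt9bKO against wt, 40 members were called lower and 1 higher, where 9.16% of all genes tested were called lower and 12.1% higher. The median log2 fold change was -1.09 over the members and 0.01 over all genes tested. By type, 2 of 6 H1, 11 of 15 H2A, 12 of 15 H2B, 4 of 5 H3 and 11 of 13 H4 genes were called lower, with median log2 fold changes of -0.58, -0.86, -1.19, -0.87 and -1.73. In DKO against wt, 30 members were called lower and none higher (6.77% of all genes lower, 9.94% higher), with a median of -0.73. By type these were 1 of 6 H1, 7 of 15 H2A, 11 of 15 H2B, 1 of 5 H3 and 10 of 13 H4 genes, with medians of -0.33, -0.61, -0.90, -0.31 and -1.63. Both comparisons share the 2 wt libraries and are not independent of each other.

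In Rspo2KO against wt, none of the 54 members was called by the edgeR quasi-likelihood test, where 0.0346% of all genes were called. None had an unadjusted p below 0.05 with more than 1.5-fold, and 1 (Hist1h1b) had an unadjusted p below 0.05 at any fold. DESeq2 also called 0, but there 7 members had an unadjusted p below 0.05 at any fold. That number was 10 of 55 with no filter and 13 with the replicate number as a block. The median was -0.17, with 43 members below and 11 above 0, and it was -0.03 without wt 2 and -0.05 without Rspo2KO 1. By type it was lowest for the H1 genes (-0.29, with all 6 below 0). With 2 wt libraries a small difference was not detectable.

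In DKO against Rspo2KO, which does not use wt, 24 members were called lower and 1 higher (4.53% of all genes lower, 4.72% higher), with a median of -0.59. They were 3 of 15 H2A, 11 of 15 H2B, 1 of 5 H3 and 9 of 13 H4 genes, and no H1 gene was called. In DKO against Wnt9bKO, 1 member was called higher (0.0635% of all genes higher), the median was 0.22, and 50 of 54 members were above 0. The interaction of the mutations (DKO minus Wnt9bKO minus Rspo2KO plus wt) gave no member an adjusted p below 0.05 by edgeR. Its lowest adjusted p among the members was 0.179, 11 members had an unadjusted p below 0.05 (9.45% of all genes did), and DESeq2 gave 2 members an adjusted p below 0.05.

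**Figure D3:**
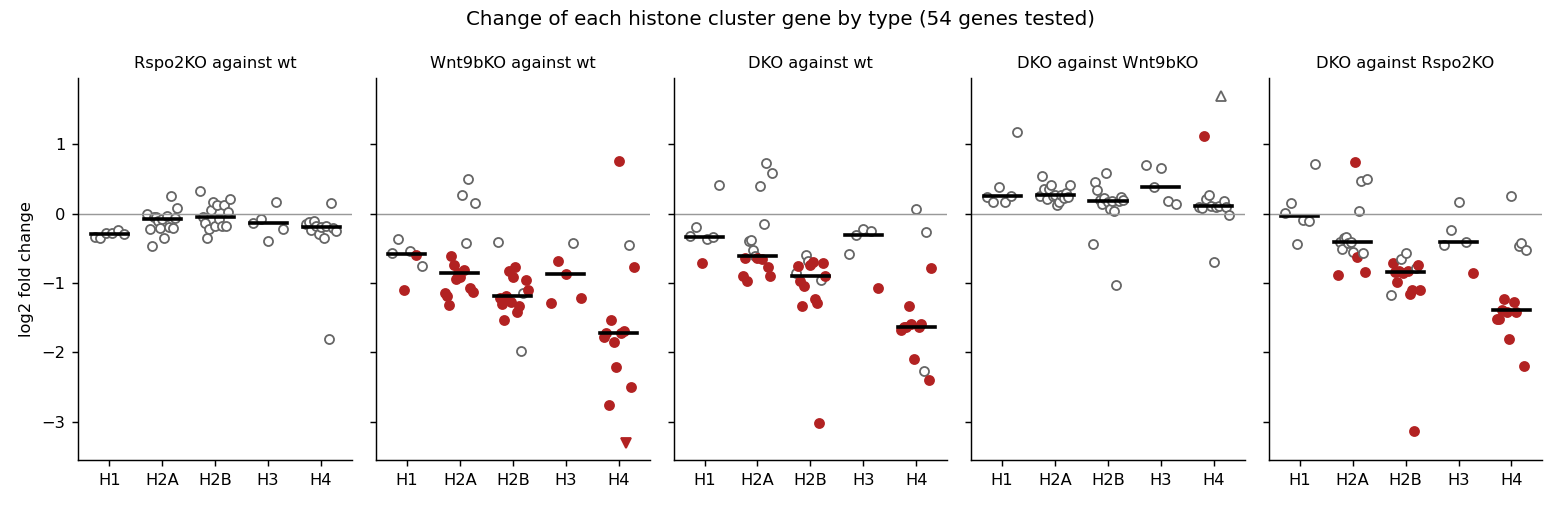
Log2 fold change of each of the 54 tested histone cluster genes by type in 5 comparisons, with filled red symbols for called genes, open symbols for genes not called and black bars at the median of each type. Triangles mark Hist1h4m, whose value lies beyond the axis, and the H4 medians of -1.73 (Wnt9bKO against wt) and -1.63 (DKO against wt) are the lowest of the 5 types.

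In 29 of the 54 members, every Wnt9bKO and DKO library lay below every wt and Rspo2KO library, which held for 10.6% of all genes tested. These were 10 H4, 12 H2B, 5 H2A and 2 H3 genes and no H1 gene. In no member did all Wnt9bKO and DKO libraries lie above (10.1% of all genes).

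H4, with H3, forms the tetramer at the core of the nucleosome, and its genes had the lowest median change of the 5 types in Wnt9bKO and in DKO against wt. Hist1h4c (chr13:23697635-23698454) stood at 747 and 732 CPM in wt, 518, 696 and 673 CPM in Rspo2KO, 89.6, 119 and 120 CPM in Wnt9bKO, and 166, 268 and 284 CPM in DKO. The 4 labels did not overlap, with wt highest, then Rspo2KO, DKO and Wnt9bKO. It fell by 2.76 on the log2 scale in Wnt9bKO against wt (SE 0.20, edgeR adjusted p = 8.7e-07) and by 1.63 in DKO against wt (SE 0.20, edgeR adjusted p = 6.7e-05). It was also the member called in DKO against Wnt9bKO, higher by 1.13 (SE 0.18, edgeR adjusted p = 0.025). That call was lost without Wnt9bKO 2, Wnt9bKO 3, DKO 2, DKO 3, Rspo2KO 2 or wt 1 (log2 fold changes of 0.98 to 1.20).

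Hist2h4 (chr3:96261682-96263311) stood at 825 and 835 CPM in wt and 602, 788 and 769 CPM in Rspo2KO. It stood at 155, 153 and 133 CPM in Wnt9bKO and 143, 169 and 158 CPM in DKO, a low range in which the labels overlapped. Its log2 fold change against wt was -2.50 in Wnt9bKO (SE 0.13, edgeR adjusted p = 4.3e-08) and -2.40 in DKO (SE 0.13, edgeR adjusted p = 7.6e-08). Of its 50-base windows, 99.0% are found in no transcript of another annotated gene. Hist1h4h, whose stem-loop and promoter are shown above, stood at 1220 and 1107 CPM in wt, 799 to 1065 CPM in Rspo2KO, 222 to 283 CPM in Wnt9bKO and 238 to 299 CPM in DKO. It fell by 2.21 in Wnt9bKO (SE 0.15) and 2.10 in DKO (SE 0.15) against wt.

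Hist1h4d, the H4 gene with the highest counts, stood at 1453 and 1783 CPM in wt, 1273 to 1698 CPM in Rspo2KO, 457 to 638 CPM in Wnt9bKO and 553 to 721 CPM in DKO. It fell by 1.54 and 1.33 on the log2 scale in Wnt9bKO and DKO against wt (SE 0.17 each). Hist4h4, the only member on chromosome 6, fell less, by 0.77 and 0.78 (SE 0.18 each), from 610 and 616 CPM in wt to 309, 418 and 354 CPM in Wnt9bKO and 351, 451 and 267 CPM in DKO. Per kilobase of annotated transcript, mean levels over all libraries were 1305 CPM for Hist1h4h, 908 CPM for Hist1h4d, 489 CPM for Hist1h4c, 264 CPM for Hist2h4 and 156 CPM for Hist4h4. The size of the fall did not follow that order.

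Hist1h4i (chr13:22040636-22041362) went the other way. It stood at 80.7 and 94.2 CPM in wt and 61.5, 86.9 and 82.2 CPM in Rspo2KO, but at 127, 163 and 157 CPM in Wnt9bKO, above every library of the other 3 labels. In DKO it stood at 96.0, 118 and 62.9 CPM, which overlapped wt. It rose by 0.77 in Wnt9bKO against wt (SE 0.21, edgeR adjusted p = 0.014), a call lost without wt 1 (log2 fold change 0.66, edgeR adjusted p = 0.126). It has the same 16-base stem-loop as Hist2h4, and the part of the stem-loop in these changes was not tested.

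Grouped by stem, the 9 tested members with GGCCCT had a median log2 fold change of -1.85 in Wnt9bKO and -1.59 in DKO against wt, and the 2 with GGTCCT (Hist1h4b and Hist1h4j) had -1.72 and -1.63. The 26 members with GGCTCT had -1.02 and -0.62, and the 17 with no stem-loop in the annotated transcript had -0.91 and -0.71. Since the first pair of stems occurs in H4 genes only, stem and histone type cannot be told apart here. Members with 200 or more annotated bases after the stop codon had a median of -1.10 in Wnt9bKO against wt (21 genes), and those with fewer had -0.94 (33 genes). Across the 54 members, Spearman's rho of the change in Wnt9bKO against wt was 0.10 with GC content, 0.01 with length, -0.01 with the share of unique windows and -0.08 with mean CPM, over genes that share libraries and in part reads.

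H2B pairs with H2A on the outside of the tetramer, and 12 of the 15 H2B genes lay lower in every Wnt9bKO and DKO library than in every wt and Rspo2KO library. Hist1h2bb stood at 602 and 902 CPM in wt, and lay at 604 to 829 CPM in Rspo2KO, and at 217, 394 and 360 CPM in Wnt9bKO and 341, 461 and 536 CPM in DKO. It fell by 1.22 in Wnt9bKO (SE 0.24, edgeR adjusted p = 0.0018) and by 0.75 in DKO (SE 0.24, edgeR adjusted p = 0.032) against wt. The DKO call was lost under DESeq2 (adjusted p = 0.057), under an offset for GC content and length (adjusted p = 0.090), and without wt 2, DKO 1 or DKO 2. Hist1h2bf fell by 1.19 (SE 0.22) and 1.05 (SE 0.22), from 427 and 375 CPM in wt to 105, 221 and 201 CPM in Wnt9bKO and 174, 194 and 213 CPM in DKO. Hist1h2bg fell by 0.83 in Wnt9bKO (SE 0.27, edgeR adjusted p = 0.031), a call lost under DESeq2, under the GC and length offset, with only the compared groups in the fit, and without wt 2 or Wnt9bKO 1. In DKO its log2 fold change was -0.60 (SE 0.27) and was not called.

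The largest H2B value in DKO rested on few reads. Hist1h2bq, of whose windows 2.68% are unique, had a mean of 0.405 CPM, with 0.446 and 0.905 CPM in wt and 0.117, 0.124 and 0 CPM in DKO. It had 5 and 15 counts in wt, 13, 17 and 5 in Rspo2KO, and 0 to 5 in the Wnt9bKO and DKO libraries. Hist1h2bq thus passed the filter on low counts only through wt and Rspo2KO libraries. That route favoured its place among the members counted above as lower, which is therefore no support. Its log2 fold change was -3.01 (SE 0.91) in DKO against wt and -3.13 (SE 0.82) against Rspo2KO, and these fitted values are no bounds. Both calls were lost without DKO 3 (edgeR adjusted p = 0.068 and 0.056) and without both Wnt9bKO 2 and DKO 3 (0.066 and 0.053), the first also without wt 2 (0.255) and the second without Rspo2KO 2 (0.081).

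H2A genes did not all move the same way. Hist1h2ab, the H2A gene with the highest counts, stood at 453 and 679 CPM in wt, and lay at 478 to 626 CPM in Rspo2KO, and at 246 to 272 CPM in Wnt9bKO and 248 to 369 CPM in DKO. It fell by 1.14 and 0.89 (SE 0.18 each) against wt, the second call being lost without wt 2 (edgeR adjusted p = 0.067). Hist2h2ac stood at 271 and 380 CPM in wt, 278 to 346 CPM in Rspo2KO, 136 to 156 CPM in Wnt9bKO and 172 to 177 CPM in DKO, and fell by 1.13 and 0.90 (SE 0.14 each). Of the 15 tested H2A genes, 3 had log2 fold changes above 0 in both Wnt9bKO and DKO against wt, Hist1h2ak (0.27 and 0.40), Hist1h2ap (0.50 and 0.73) and Hist3h2a (0.16 and 0.58), and none of these changes was called; the latter 2 genes were chosen after their values were seen. Hist1h2ak stood at 255 and 214 CPM in wt, 156, 216 and 179 CPM in Rspo2KO, 232, 314 and 304 CPM in Wnt9bKO and 255, 315 and 356 CPM in DKO, and rose by 0.75 in DKO against Rspo2KO (SE 0.15, edgeR adjusted p = 0.0042). Exons of all 18 H2A members overlap another annotated gene model, and 6 of these models are in the count files. Many H2A genes share sequence, with a median of 27.0% unique windows per gene. A window shared with an overlapping model also counts as not unique in that share.

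Among H3 genes, Hist1h3a stood at 224 and 281 CPM in wt, 203 to 259 CPM in Rspo2KO, 90.8, 113 and 106 CPM in Wnt9bKO and 122, 195 and 189 CPM in DKO. It fell by 1.29 in Wnt9bKO against wt (SE 0.18, edgeR adjusted p = 0.00016). Its log2 fold change in DKO was -0.58 (SE 0.18), with an adjusted p of 0.026 but less than 1.5-fold. Hist1h3b fell by 0.69 in Wnt9bKO (SE 0.19, edgeR adjusted p = 0.012), a call lost under the GC and length offset and without wt 2 or Wnt9bKO 1. Hist1h3e, the H3 gene with the highest counts, stood at 403 and 608 CPM in wt, 508 to 642 CPM in Rspo2KO, 367 to 392 CPM in Wnt9bKO and 321 to 527 CPM in DKO and was called in no comparison. With 8 annotated genes missing, 5 of them H3 genes, the H3 sum covers part of that type.

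H1 linker histones bind the DNA between nucleosomes, and their median was the nearest to 0 of the 5 types in Wnt9bKO against wt. Hist1h1a stood at 1725 and 1594 CPM in wt, 1080, 1453 and 1420 CPM in Rspo2KO, 1175, 1121 and 1071 CPM in Wnt9bKO, and 1046, 1443 and 1485 CPM in DKO. Its log2 fold change of -0.56 in Wnt9bKO (SE 0.16, edgeR adjusted p = 0.016) was under 1.5-fold. Hist1h1b stood at 913 and 842 CPM in wt, and lay at 556 to 814 CPM in all other libraries, in which the 3 mutant labels overlapped, and was called in no comparison. Hist1h1c fell, by 1.10 in Wnt9bKO (SE 0.19, edgeR adjusted p = 0.00078) and by 0.71 in DKO (SE 0.19, edgeR adjusted p = 0.014), from 915 and 859 CPM in wt to 348 to 452 CPM in Wnt9bKO and 393, 531 and 701 CPM in DKO. The DKO call was lost without wt 1, wt 2 or DKO 1. Of the 5 types, H1 genes had the highest median share of windows unique among the annotated transcripts (98.9%).

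In 3 members, libraries of 1 label differed by more than 50-fold. Hist1h4m (chr13:21811746-21812147) had 6 and 2068 counts in wt, 2, 4 and 852 in Rspo2KO, 1, 4 and 1 in Wnt9bKO, and 2, 4 and 647 in DKO. Counts were therefore high in 1 library each of 3 labels and near 0 in the other 8 libraries. Hist1h2br (chr13:21833743-21837530) had 481 and 0 counts in wt and 314, 526 and 0 in Rspo2KO, against 116 to 201 in the Wnt9bKO and DKO libraries. The libraries wt 2 and Rspo2KO 3, which had counts on Hist1h4m, had none on Hist1h2br, while DKO 3 had both. Hist1h2ba (chr13:23933773-23934156), known as a testis histone gene, had 299 and 3 counts in wt and 106 to 288 in the other libraries.

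Hist1h4m and Hist1h2br lie near each other on chromosome 13 in 2 neighbouring groups of an H2B, an H2A and an H4 gene, in opposite orientation. Between 2.68% and 14.4% of the windows of these 6 genes are unique. The log2 fold change of Hist1h4m in Wnt9bKO against wt was -9.02 (SE 2.80, edgeR adjusted p = 0.023) and is no bound, since it rests on wt 2. Without that library it was -2.15 (edgeR adjusted p = 0.843), and the call was also lost without any 1 of the 3 Wnt9bKO libraries.

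**Figure D4:**
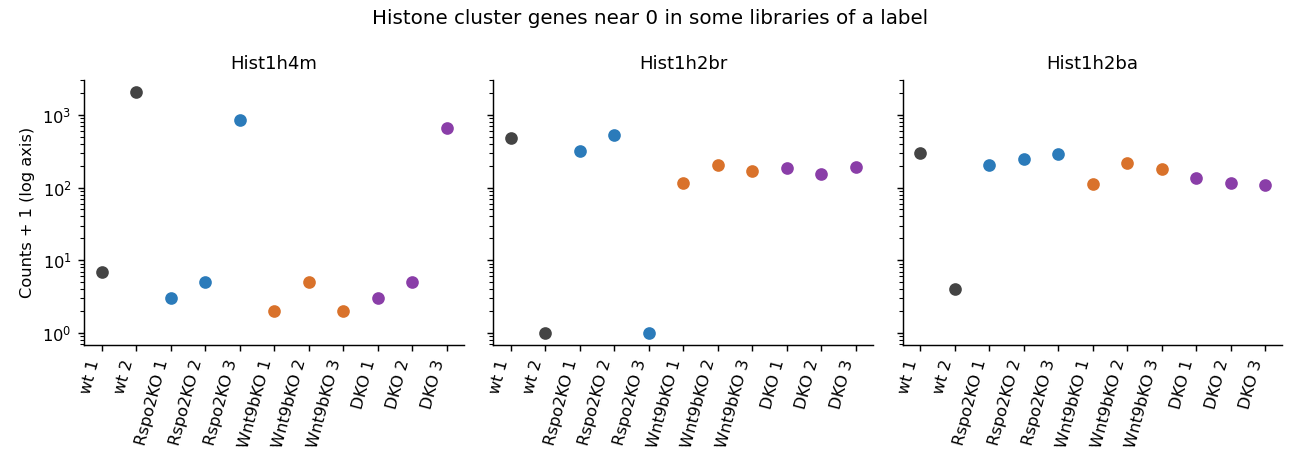
Counts plus 1 (log axis) of Hist1h4m, Hist1h2br and Hist1h2ba in each library, coloured by label. Hist1h4m has 647 to 2068 counts in wt 2, Rspo2KO 3 and DKO 3 and at most 6 in the others, and Hist1h2br has 0 in wt 2 and Rspo2KO 3.

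The replication-independent histone genes overlapped in sum. The 11 genes together stood at 2183 to 2654 CPM in wt and Rspo2KO and 2407 to 2636 CPM in Wnt9bKO and DKO. Single genes moved in both directions, so the overlap of the sums does not mean that they were unchanged. In 4 of the 11 every Wnt9bKO and DKO library lay below every wt and Rspo2KO library, and in 2 above (10.6% and 10.1% of all genes). The median log2 fold change of the 11 was -0.27 in Wnt9bKO and -0.29 in DKO against wt. In Wnt9bKO 2 were called higher and 2 lower (12.1% and 9.16% of all genes), and in DKO 1 and 1 (9.94% and 6.77%). H3f3b, one of the H3.3 genes, stood at 322 and 212 CPM in wt, 188 to 245 CPM in Rspo2KO, 596 to 689 CPM in Wnt9bKO and 671 to 703 CPM in DKO, and rose by 1.30 (SE 0.17) and 1.37 (SE 0.17) against wt. H3f3a, the other H3.3 gene, had log2 fold changes of -0.44 and -0.31 and was not called.

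H2afz, which encodes H2A.Z, stood at 339 and 436 CPM in wt, 319 to 428 CPM in Rspo2KO, 209 to 255 CPM in Wnt9bKO and 230 to 309 CPM in DKO. It fell by 0.70 in Wnt9bKO (SE 0.16, edgeR adjusted p = 0.0038), a call lost without wt 2, and its value of -0.53 in DKO was under 1.5-fold. The related H2afv fell by 0.82 and 0.79 (SE 0.15 each) against wt. The linker variant H1fx rose by 0.64 in Wnt9bKO (SE 0.18, edgeR adjusted p = 0.015), a call lost without wt 1, wt 2 or Wnt9bKO 1 and under the GC and length offset. In DKO against Rspo2KO, H3f3b rose by 1.68 and H2afv fell by 0.90, calls that held under all 21 alternatives. H1fx rose by 0.60, a call lost under 8 of the 21 (edgeR adjusted p up to 0.103), among them the GC and length offset and leaving out DKO 2, DKO 3, Rspo2KO 2, Rspo2KO 3 or wt 1.

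Among 14 factors of histone mRNA transcription, 3′ end processing and decay, 1 was called. It was called in Wnt9bKO against wt, DKO against wt and DKO against Rspo2KO, where 21.2%, 16.7% and 9.26% of all genes tested were called. The share called in this list was thus below that of all genes. *Lsm10*, a subunit of the U7 snRNP, stood at 14.8 to 20.0 CPM in wt and Rspo2KO and 7.71 to 10.4 CPM in Wnt9bKO and DKO. It fell by 1.06 in Wnt9bKO (SE 0.16, edgeR adjusted p = 0.00029) and by 0.90 in DKO (SE 0.16, edgeR adjusted p = 0.0011) against wt, and by 0.85 in DKO against Rspo2KO. *Slbp* stood at 121 to 152 CPM in wt and Rspo2KO and 139 to 154 CPM in Wnt9bKO and DKO, with log2 fold changes of -0.01 and -0.02 against wt (SE 0.11 each). Summed, the 14 factors stood at 923 to 1024 CPM in wt and Rspo2KO and 1069 to 1206 CPM in Wnt9bKO and DKO. For 4 factors every Wnt9bKO and DKO library lay above every wt and Rspo2KO library, and for 2 below (10.1% and 10.6% of all genes).

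DNA replication genes, whose products also act in S phase, fell more often than they rose. In 6 of them every Wnt9bKO and DKO library lay below every wt and Rspo2KO library, and in 1 above (10.6% and 10.1% of all genes tested). Of 29 genes, 3 rose and 6 fell in Wnt9bKO (12.1% of all genes tested rose and 9.16% fell) and 3 rose and 7 fell in DKO against wt (9.94% rose and 6.77% fell), with medians of -0.27 and -0.26. *Mcm2*, a subunit of the replicative helicase, fell by 0.99 and 0.98, and *Rrm2*, a subunit of ribonucleotide reductase, rose by 1.15 and 1.03; both were chosen after their values were seen. The summed level of the 29 genes was 4341 to 5292 CPM in wt and Rspo2KO and 3945 to 4603 CPM in Wnt9bKO and DKO. Of 14 histone chaperone genes, 3 rose and 2 fell in Wnt9bKO and 2 rose and 2 fell in DKO against wt, beside the same shares of all genes. Their sums did not overlap, at 2872 to 3060 CPM in wt and Rspo2KO and 3398 to 3692 CPM in Wnt9bKO and DKO. In 6 chaperone genes every Wnt9bKO and DKO library lay above every wt and Rspo2KO library, and in 2 below. No gene of these lists was called in Rspo2KO against wt or in DKO against Wnt9bKO.

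Other RNAs that lack a poly(A) tail moved with the members. Small nuclear RNA genes summed to 352 to 419 CPM in wt and Rspo2KO and 70.1 to 82.7 CPM in Wnt9bKO and DKO, and small nucleolar RNA genes to 1197 to 1511 CPM and 408 to 743 CPM. Of 8 named RNAs of this kind, 7 were lower and 1, the telomerase RNA *Terc*, was higher in Wnt9bKO and in DKO against wt, and none was called in Rspo2KO against wt. All genes tested were called lower and higher at 9.16% and 12.1% in Wnt9bKO and at 6.77% and 9.94% in DKO against wt. In DKO against Rspo2KO, 7 of the 8 were lower and 1 higher (4.53% and 4.72% of all genes). *Rmrp*, the RNA of RNase MRP, stood at 3438 to 5588 CPM in wt and Rspo2KO and 352 to 711 CPM in Wnt9bKO and DKO. The labels say that libraries were made by standard Illumina protocols from total RNA and do not say how mRNA was selected or whether all libraries were made together. The part of library preparation in the histone values was not tested, and with each label's libraries on 1 side it cannot be told apart from genotype.

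Markers of other tissues differed between labels, and the erythroid and heart sums had the same split as the members. Of all genes tested, 9.16% were called lower and 12.1% higher in Wnt9bKO against wt, and 6.77% lower and 9.94% higher in DKO against wt. Of 6 erythroid markers, 2 were lower in Wnt9bKO and 4 in DKO against wt. The 6 summed to 3936 to 5751 CPM in wt and Rspo2KO and 1739 to 2844 CPM in Wnt9bKO and DKO. Of 6 forebrain and eye markers, 5 were higher in Wnt9bKO and 4 in DKO, with sums that overlapped, at 77.0 to 102 CPM and 94.8 to 199 CPM. Of 6 neuron markers, 1 was lower in Wnt9bKO and 2 were higher in DKO against wt, and their sums also overlapped, at 499 to 658 CPM and 306 to 583 CPM. In DKO against Rspo2KO, 5 erythroid markers were lower and 2 forebrain and eye markers higher (4.53% of all genes lower, 4.72% higher). No neuron marker was called there. Of 6 heart markers 3 were tested, and all 3 were lower in Wnt9bKO and in DKO against wt, with none called in DKO against Rspo2KO. The 6 summed to 58.1 CPM in wt 1, 7.64 to 10.3 CPM in the other wt and Rspo2KO libraries, and 3.22 to 7.39 CPM in Wnt9bKO and DKO. No marker of these lists was at 0 in every library, and their part in the histone values was not tested. Without wt 1 and without wt 2, summed histone levels in Wnt9bKO relative to wt were 0.457 and 0.493.

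**Figure D5:**
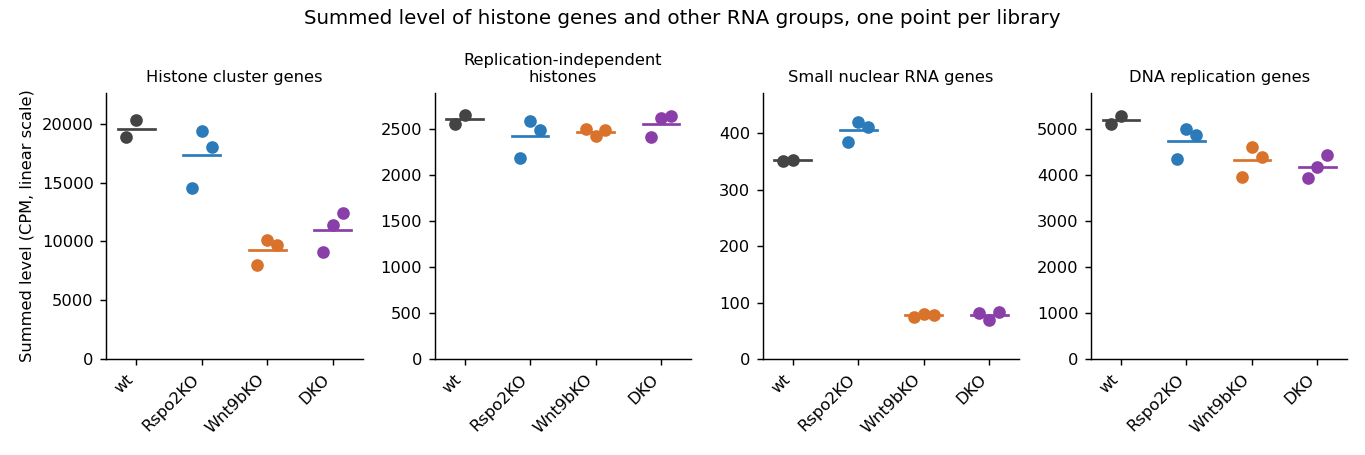
Summed level (CPM, linear axes from 0, with a scale of their own) of the histone cluster genes, 11 replication-independent histone genes, small nuclear RNA genes and 29 DNA replication genes, with 1 point per library and a bar at the mean of each label. Histone cluster and small nuclear RNA genes are lower in every Wnt9bKO and DKO library than in every wt and Rspo2KO library, while replication-independent histone genes overlap.

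The 5 protein-coding genes outside the clusters whose log2 CPM followed the mean log2 CPM of the members most closely over the 11 libraries were *Taf9* (Pearson's r 0.987), *Rps13* (0.986), *Cfap20* (0.984), *Rplp0* (0.983) and *Rpl29* (0.980). *Rps13*, *Rplp0* and *Rpl29* encode ribosomal proteins and *Taf9* a subunit of general transcription complexes. *Taf9* stood at 43.0 to 56.5 CPM in wt and Rspo2KO and 28.8 to 44.8 CPM in Wnt9bKO and DKO. These values are descriptions over libraries that fall into a high and a low range.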

How the data were processed

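Facial process RNA from 11 mouse embryo libraries (2 wt and 3 each of Rspo2KO, Wnt9bKO and DKO by their labels; the paper's methods name 3 per genotype) was analysed. The authors deposited HTSeq read counts per Ensembl gene as whole numbers without normalization; the reads were 50 bases long and single-end, trimming was by Cutadapt and alignment by STAR against GRCm38. Versions, strand setting and treatment of reads that map to several places are not given in the sources used here. HTSeq by default leaves out reads that map to several places, which bears on near-identical histone genes. Overlapping genes are uncertain for the same reason.

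Genes were matched by identifier to GENCODE M21 (GRCm38; 36639 of 38561 matched). Stem-loops were searched in its transcripts. A 50-base window was called unique if found in no transcript of another gene on either strand; the genome sequence was not used here. Promoters came from RefSeq (GRCm38.p6), where 54 of 59 members had an entry.

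Tests used R 4.3.3 with edgeR 4.0.16 (filterByExpr, TMM, quasi-likelihood F-test, 1 mean per label over all 11 libraries), since wt has 2 libraries. p-values were adjusted by Benjamini-Hochberg over 17317 genes. DESeq2 1.42.0, which the authors used, was an alternative. The others were RLE and upper-quartile factors, a fit of only the groups compared, no filter, a minimum of 10 counts in each library, a loess offset on GC content and length (span 0.3), the replicate number as a block, unadjusted p, percent of counts, members with over 50% unique windows only, and each library left out. Leaving out both Wnt9bKO 2 and DKO 3 was added after the data were seen. Figures used Python 3.11.15 and matplotlib 3.10.9. The model was tested on simulated data.

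The members, the gene lists and the rule for named genes were chosen with earlier results of these data known. Named were the 3 members of each type with the highest mean CPM, the 3 largest called rises and falls per comparison, members whose libraries of 1 label differed by over 50-fold with at least 100 counts in the highest, called genes of the lists of replication-independent histones and histone mRNA factors, *Slbp*, *H3f3a*, *H3f3b*, *H2afz*, *Rspo2* and *Wnt9b*. Any other gene was chosen after its values were seen. Precision is limited by the number of libraries and, for members with few counts, by depth.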

Additional observations from a re-analysis of the deposited data

Results flagged for a closer look

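A signal lay outside the genes compared above. Hist1h2al, annotated as a processed pseudogene (chr13:51202727-51203065, GRCm38) and so not a member, stood at 0.625 and 0.966 CPM in wt and 0.898, 1.21 and 1.33 CPM in Rspo2KO. It stood at 95.6, 103 and 91.2 CPM in Wnt9bKO and 40.1, 108 and 91.4 CPM in DKO, so every library of the latter labels lay above every library of the former. The log2 fold change against wt was 6.86 in Wnt9bKO (SE 0.46, edgeR adjusted p = 3.3e-07) and 6.58 in DKO (SE 0.46, edgeR adjusted p = 6.5e-07). Of its 50-base windows, 32.4% are found in no other annotated transcript. It was chosen after its values were seen.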

How the results depend on the processing

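Over the alternatives run, the count of members called was 33 to 44 in Wnt9bKO against wt and 17 to 30 in DKO against Rspo2KO. The sum of all members relative to wt was 0.83 to 0.95 in Rspo2KO, 0.45 to 0.51 in Wnt9bKO and 0.52 to 0.61 in DKO. The median change of the members moved by less than 0.236 in each comparison. That limit is the spread of the members' mean log2 CPM between libraries of 1 label. It is larger than the size of the median in Rspo2KO against wt (-0.17) and in DKO against Wnt9bKO (0.22). For these comparisons the limit could not show whether the median was stable, since a shift to 0 would also have passed. With 1 library left out, the median log2 change of the members lay between -0.23 and -0.03 in Rspo2KO against wt, at -0.03 without wt 2 and -0.05 without Rspo2KO 1, and between 0.12 and 0.33 in DKO against Wnt9bKO, at 0.12 without Wnt9bKO 1 and 0.13 without DKO 3. In DKO against wt the count lay between 19 and 38, and it fell from 30 to 19 without wt 2. The count of members in DKO against Wnt9bKO was least stable: 1 in the reported fit, 6 at the unadjusted p, 4 under DESeq2, 6 with no filter, 0 with only the groups compared, 0 without both Wnt9bKO 2 and DKO 3, and between 0 and 4 with 1 library left out (4 without DKO 1, 0 without DKO 2, DKO 3, Rspo2KO 2, Wnt9bKO 2, Wnt9bKO 3 or wt 1). In Rspo2KO against wt the count was 0, and 1 with no filter (Hist1h4m) and 1 without wt 1 (Hist1h2ba), so between 0 and 1 with 1 library left out. Members with an adjusted interaction p below 0.05 numbered 0 in the reported fit, 11 at the unadjusted p, 2 under DESeq2, 7 with no filter and between 0 and 2 with 1 library left out (2 without DKO 1, 1 without wt 1). The summed H3 level in Wnt9bKO relative to wt was 0.616 over all members, 0.469 over those with over 50% unique windows and between 0.555 and 0.690 with 1 library left out. The causes were not tested.

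The labels do not say what the replicate numbers mark, and the samples were not treated as paired in the reported fit. Of 15 same-numbered pairs 3 had deviations with a correlation over 0.1 (range -0.11 to 0.24). This count cannot settle the question, since the deviations of the 2 wt libraries mirror each other. The mutant libraries did go together by number, and all 9 same-numbered mutant pairs were positive (0.041 to 0.236). In each pair of mutant labels every library correlated best with its own number (18 of 18 look-ups). With wt this held in 6 of 15. Library 1 also had the lowest summed histone level of each label. With the replicate number as a block, with or without the GC content and length offset, members called numbered 1 in Rspo2KO against wt (Hist1h4m), 3 in DKO against Wnt9bKO and 2 for the interaction. The block moved no other count by more than 1.5 times. Of 51 calls of named genes, 34 held under every alternative, 17 were lost under at least 1, and none was reversed. Depth limits the members with few counts, such as Hist1h2bq, and shared sequence those whose windows are mostly repeated.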

Other observations

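Another histone pseudogene, Hist3h2bb-ps (processed pseudogene, chr11:58954048-58954512, GRCm38), moved opposite to Hist1h2al and was also chosen after its values were seen. It stood at 45.6 and 51.9 CPM in wt and 43.5, 55.6 and 53.5 CPM in Rspo2KO, against 2.98, 8.70 and 16.4 CPM in Wnt9bKO and 6.39, 8.59 and 7.64 CPM in DKO. Its log2 fold change against wt was -2.39 in Wnt9bKO (SE 0.38, edgeR adjusted p = 0.00040) and -2.69 in DKO (SE 0.39, edgeR adjusted p = 0.00023), and 70.0% of its windows are unique.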
